A study of Homo sapiens with 15 samples.

Results

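The genes described here are those of the apoptosome, its inhibitors, and the mitochondrial factors that act on both. They are APAF1, CYCS, CASP9, DIABLO, HTRA2, XIAP, BIRC2, and VDAC1. They were chosen by name, and every array probe whose RefSeq accession belongs to one of them was taken, which gave 12 probes of 8 genes among the 34127 probes on the arrays, which name 19483 genes. On each of the 15 arrays all 12 exceeded background clearly, and all were among the 30585 probes that passed the filter for testing. No effector caspase is among the 8 genes, and CASP6 is described with the rest of the pathway.

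HCT116, a human colon cancer cell line, was grown as xenografts in athymic nude mice, and RNA was taken from the tumors at day 35. The cells carried Myc-tagged MOAP-1, the empty vector, RASSF1A, or one of the MOAP-1 mutants K264R and K278R, each with a lysine changed to arginine, with 3 tumors for each of the 5 constructs and 1 tumor per single-color Agilent array. The study asked how expression in tumors with MOAP-1 differs from that in vector tumors. The constructs were introduced by transient transfection of cell pools, so a tumor at harvest is a mixture in which the share of cells still carrying a construct was not measured here, and the host lacks a working T cell compartment. The labels do not say whether tumors of 1 construct came from separate transfections, so p values measure the spread between tumors.

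In the intrinsic pathway of apoptosis, cytochrome c leaves the mitochondrion and binds APAF1, which assembles into the apoptosome and activates caspase-9, and caspase-9 then cleaves the effector caspases. The inhibitor of apoptosis proteins hold caspases in check, and DIABLO and HTRA2, released from the same intermembrane space, bind these inhibitors through a short amino-terminal motif and relieve the block. MOAP-1 acts upstream of these steps, at BAX and the mitochondrial outer membrane.

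Levels are given as the log2 processed signal of a probe minus the 75th percentile of its array, so 0 stands for the 75th percentile, and a change is a difference of such levels between constructs. A probe was called when the adjusted p of the limma fit over all 15 arrays was below 0.05. Levels of different probes are not compared with each other, because the brightness of a probe also depends on its sequence. The 75th percentile of the signal ran from 630 to 768 on the vector arrays, 613 to 816 with RASSF1A, 798 to 1020 with MOAP-1, 1170 to 1400 with K264R, and 496 to 1150 with K278R, and its part in the changes was not tested. The vector tumors shared 1 slide with RASSF1A tumor 3, MOAP-1 tumor 2 shared a slide with the K278R tumors, and the K264R tumors had a slide of their own. Slide and construct therefore cannot be told apart between vector and MOAP-1, K264R, or K278R. All 8 epithelial markers, among them EPCAM and KRT19, were well above background on every array. Their summed level, in units of the 75th percentile, was 321 to 382 in vector tumors, 280 to 322 with RASSF1A, and 218 to 328 with K278R. It was 257 to 306 with MOAP-1 and 251 to 269 with K264R, without overlap with vector. The mean levels of CDH1 and VIL1 were higher with MOAP-1 and K264R than with vector, and those of the other markers lower. CDH1 was at 1.38 with vector, 1.44 with MOAP-1, and 1.69 with K264R, and VIL1 at -3.66, -3.21, and -3.58. The summed level of 6 fibroblast markers, in units of the 75th percentile, was 1.91 to 6.72 in vector tumors, 7.15 to 10.4 with RASSF1A, 4.21 to 18.1 with K264R, 5.24 to 40.4 with MOAP-1, and 9.62 to 37.9 with K278R. Of these markers COL1A1, COL1A2, and DCN were above background on every array and LUM on none. Leukocyte markers (4 genes) summed to 4.64 to 5.59 with vector, 5.57 to 6.95 with MOAP-1, and 5.17 to 5.92 with K264R. They summed to 5.71 to 7.36 with K278R and 5.37 to 5.85 with RASSF1A. Erythroid markers (2 genes) summed in the same order to 1.68 to 1.87, 2 to 2.61, 1.71 to 2.24, 2.19 to 2.38, and 1.78 to 2.06. Endothelial markers (4 genes) gave, in that order, 2.1 to 2.36, 2.41 to 2.81, 2.28 to 3.69, 2.36 to 2.8, and 2.42 to 2.78. Among the leukocyte markers, mean CD14 fell from 0.52 with vector to 0.10 with MOAP-1. PTPRC rose from 1.20 to 1.92, and CD68 and CD3E also rose. The markers were read at probes named for human transcripts, whereas the host cells of the tumors are mouse cells. Whether the signals of fibroblast, leukocyte, erythroid, and endothelial markers come from host cells or from the cancer cells was not tested. The part of these marker sums in the changes was not tested. The array also cannot tell fewer human cells from less RNA per cell.

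The probe of MOAP1 was higher with MOAP-1 (log2 change 0.86, S.E. 0.14, adjusted p = 0.000855 by limma), K264R (0.55), and K278R (0.74) than with vector. The RASSF1 probe was not higher in the RASSF1A tumors than in vector tumors (log2 change -0.12, adjusted p = 0.67), and whether it binds the introduced transcript is not stated.

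APAF1, HTRA2, and 1 of the VDAC1 probes rose in MOAP-1, K264R, and K278R tumors relative to vector, although the APAF1 change turned negative under one background model. The other VDAC1 probe rose in MOAP-1 and K264R tumors, and 1 of the XIAP probes fell in MOAP-1 and K264R tumors. CYCS and BIRC2 rose in the K264R tumors. The fall of XIAP with MOAP-1 was called under 8 of 19 alternatives in processing, and the rise of BIRC2 with K264R under 11 of 19. Under normexp, the background model that reversed APAF1, only VDAC1 A_32_P163169 was called, with MOAP-1 and K264R. CASP9 and DIABLO were not called for any construct against vector, and no member probe was called with RASSF1A.

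The promoters of 3 genes that moved, on the plus strand of GRCh38.p14 from the RefSeq table, are shown because each gene had a probe called with MOAP-1 and K264R. Each line holds the 250 bases before the start of the gene in that table, at chr12:98645040-98645289 for APAF1, chr2:74529155-74529404 for HTRA2, and chrX:123859458-123859707 for XIAP. VDAC1 has windows at other starts and is not shown. Capitals mark GGGCGG on either strand, the core of a GC box.
APAF1: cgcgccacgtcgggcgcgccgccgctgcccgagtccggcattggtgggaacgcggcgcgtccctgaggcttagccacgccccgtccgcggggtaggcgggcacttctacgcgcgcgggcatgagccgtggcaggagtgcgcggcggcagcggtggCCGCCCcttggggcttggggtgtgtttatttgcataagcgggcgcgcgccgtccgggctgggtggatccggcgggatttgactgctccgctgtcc
HTRA2: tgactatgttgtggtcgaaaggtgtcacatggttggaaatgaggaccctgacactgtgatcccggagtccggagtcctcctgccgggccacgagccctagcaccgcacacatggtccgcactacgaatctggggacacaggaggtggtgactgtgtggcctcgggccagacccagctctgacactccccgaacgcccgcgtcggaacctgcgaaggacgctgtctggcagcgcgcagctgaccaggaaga
XIAP: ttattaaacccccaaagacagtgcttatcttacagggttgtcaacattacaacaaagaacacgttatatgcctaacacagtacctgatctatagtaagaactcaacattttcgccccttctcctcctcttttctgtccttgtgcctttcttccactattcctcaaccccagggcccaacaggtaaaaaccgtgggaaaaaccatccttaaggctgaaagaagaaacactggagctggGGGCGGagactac
APAF1 and XIAP each held 1 GGGCGG and HTRA2 held 0, and 42.6% of all 35116 windows of this length in the table held at least 1. The count depended on the start chosen. At another start in the table HTRA2 held 1, and at other starts XIAP held 0 and 2. The letters CCAAT, searched on both strands, occurred once upstream of APAF1 and were in 32.0% of all windows. These matches are descriptions of the sequence and do not show that a factor binds.

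**Figure D1:**
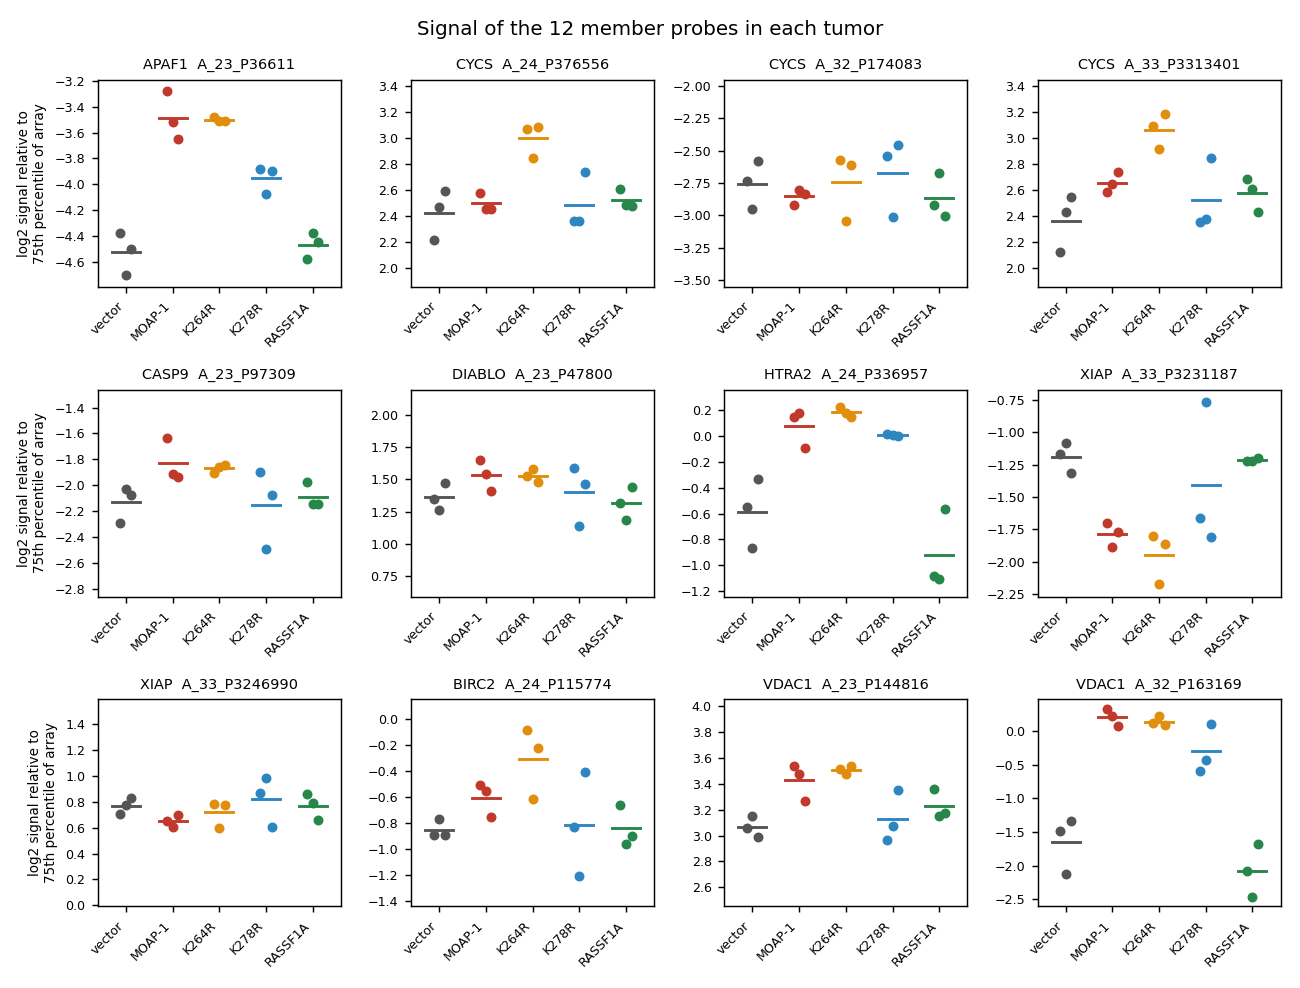
Log2 signal relative to the 75th percentile of the array (vertical axes, whose ranges differ between panels) for each of the 12 probes in the 5 constructs. Points are single tumors and lines are means of 3 tumors, and APAF1, HTRA2, and VDAC1 A_32_P163169 show MOAP-1, K264R, and K278R tumors above all vector tumors, which for APAF1 did not hold under the normexp background model.

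APAF1 is the scaffold of the apoptosome. Its only probe (A_23_P36611) was dim, with the processed signal between 24.5 and 34 in vector tumors and between 69.6 and 99.4 in MOAP-1 tumors, and 23.8% of the kept probes were as dim or dimmer on average. Levels in the MOAP-1 tumors were -3.28, -3.52, and -3.65, and those in the vector tumors were -4.38, -4.70, and -4.50. The K264R tumors, at -3.48, -3.51, and -3.51, lay in the MOAP-1 range. K278R tumors were intermediate at -3.88, -4.07, and -3.90, and RASSF1A tumors, at -4.58, -4.38, and -4.44, overlapped those of vector. The rise against vector was 1.04 with MOAP-1 (S.E. 0.11, adjusted p = 0.000184 by limma; 2.06-fold), 1.03 with K264R (adjusted p = 9.95e-05), and 0.58 with K278R (adjusted p = 0.00577). In the order of the means, K278R was above RASSF1A (difference 0.52, adjusted p = 0.00481), whereas MOAP-1 and K264R, K264R and K278R, and RASSF1A and vector did not pass the test. The direction depended on how the local background was treated. With the normexp background model the changes were -0.73, -0.20, and -0.93 for MOAP-1, K264R, and K278R, and when spots with an extreme local background were left out of that model they were 0.31, 0.11, and 0.11, and none of these passed the test. The call with K278R was also lost under quantile normalization (0.38, adjusted p = 0.0545), with only the 6 arrays compared (adjusted p = 0.0513), and in the methods' t-test after adjustment.

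Cytochrome c, which carries electrons in respiration and triggers apoptosome assembly in the cytosol, had 3 probes. The pair of bright probes followed each other over the 15 arrays (r = 0.94). At A_24_P376556 the K264R tumors were at 3.07, 2.85, and 3.09, and the vector tumors at 2.22, 2.47, and 2.59. At A_33_P3313401 the corresponding levels were 3.10, 2.92, and 3.19 and 2.12, 2.43, and 2.54. All K264R tumors therefore lay above all vector tumors at both probes. The rise was 0.58 (S.E. 0.13, adjusted p = 0.00371 by limma) and 0.70 (S.E. 0.15, adjusted p = 0.0028). MOAP-1 tumors, at 2.58, 2.45, and 2.46 for the first probe, stayed within the vector range, with a log2 change of 0.07 (adjusted p = 0.695). At the second they were at 2.59, 2.64, and 2.74, above all vector tumors, but the change of 0.29 did not pass the test (adjusted p = 0.147). MOAP-1 minus K264R was -0.51 and -0.41 with no overlap of the tumors, but neither difference passed the test (adjusted p = 0.331 and 0.4). Against RASSF1A, K264R was higher by 0.48 (adjusted p = 0.00888) and 0.49 (adjusted p = 0.0173). K278R tumors spread from 2.36 to 2.74 at the first probe. The third probe, A_32_P174083, was dimmer, and its group means lay within 0.19 of each other, with no call in any comparison. The RefSeq gene table lists 45 pseudogenes named for CYCS, and which copies the probes bind was not tested.

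CASP9 encodes the initiator caspase that the apoptosome activates. At its probe (A_23_P97309) the MOAP-1 tumors were at -1.63, -1.91, and -1.94 and the vector tumors at -2.29, -2.03, and -2.08. The groups did not overlap, yet the change of 0.30 did not pass the test (S.E. 0.14, adjusted p = 0.119 by limma). K264R tumors were at -1.91, -1.86, and -1.84, a change of 0.26 (adjusted p = 0.17). In the K278R tumors the level ranged from -2.49 to -1.90, and the change was -0.02 (adjusted p = 0.925).

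The inhibitor antagonists DIABLO and HTRA2 differed in their behavior. HTRA2 (A_24_P336957), a serine protease of the intermembrane space, was at 0.15, 0.18, and -0.09 in MOAP-1 tumors and at -0.55, -0.87, and -0.33 in vector tumors. It was at 0.23, 0.18, and 0.15 with K264R, and the K278R tumors lay between 0.00 and 0.01. RASSF1A tumors were at -1.08, -1.11, and -0.57. All 9 tumors with a form of MOAP-1 were thus above all 6 others. HTRA2 rose by 0.66 with MOAP-1 (S.E. 0.15, adjusted p = 0.00648 by limma; 1.58-fold), by 0.77 with K264R (adjusted p = 0.00214), and by 0.59 with K278R (adjusted p = 0.0188). The call with K278R was lost without K278R tumor 3 (adjusted p = 0.0503) or without vector tumor 2 (adjusted p = 0.0912). It was also lost with only the 6 arrays compared (adjusted p = 0.0626). Under normexp the calls with MOAP-1, K264R, and K278R were lost (adjusted p = 0.132, 0.0657, and 0.279 by limma). The methods' t-test after adjustment lost those with MOAP-1 (adjusted p = 0.0775) and K278R (adjusted p = 0.151). The change of HTRA2 with RASSF1A was -0.34 and did not pass (adjusted p = 0.41 by limma). RASSF1A tumor 3, on the vector slide, was 0.02 above the vector mean, and the lower values of tumors 1 and 2 came from a slide scanned on another day. DIABLO (A_23_P47800), which is released with cytochrome c, was at 1.65, 1.54, and 1.41 with MOAP-1 and at 1.35, 1.27, and 1.48 with vector. These ranges overlapped, and the changes were 0.17 with MOAP-1 and with K264R, 0.04 with K278R, and -0.05 with RASSF1A, all without a call (adjusted p from 0.3 to 0.907 by limma).

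XIAP, the inhibitor that binds caspase-9 and the effector caspases directly, had 2 probes that gave different results. At A_33_P3231187 the MOAP-1 tumors were at -1.70, -1.89, and -1.77, the K264R tumors at -1.80, -2.18, and -1.87, and the vector tumors at -1.17, -1.09, and -1.31. The level fell by 0.60 with MOAP-1 (S.E. 0.21, adjusted p = 0.0443 by limma) and by 0.76 with K264R (S.E. 0.21, adjusted p = 0.013). K278R tumors were at -1.66, -0.76, and -1.81, so tumor 2, the array with the lowest 75th percentile, stood apart from the others, and the change was -0.22 (adjusted p = 0.468). RASSF1A tumors, at -1.23, -1.23, and -1.20, were inside the vector range. Before the arrays were scaled, the processed signals of this probe overlapped, at 215.1 to 299.3 with MOAP-1 and 280.2 to 308.8 with vector. The call with MOAP-1 was lost when any of the 6 tumors compared was left out (adjusted p from 0.0564 to 0.128) and that with K264R when K264R tumor 2 was left out (adjusted p = 0.0508). At the brighter probe, A_33_P3246990, the MOAP-1 tumors were at 0.65, 0.60, and 0.70 and the vector tumors at 0.71, 0.77, and 0.83. The changes there were -0.12 with MOAP-1 (adjusted p = 0.419) and -0.05 with K264R (adjusted p = 0.735).

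BIRC2 (cIAP1) is a ubiquitin ligase of the same inhibitor family. Its levels (A_24_P115774) were -0.08, -0.62, and -0.22 in K264R tumors and -0.90, -0.77, and -0.89 in vector tumors, without overlap. The rise of 0.55 with K264R was called (S.E. 0.18, adjusted p = 0.0351 by limma), but not without K264R tumor 1 (0.43, adjusted p = 0.136) or 3 (0.50, adjusted p = 0.104), when any vector tumor was left out (adjusted p from 0.0599 to 0.0899), or under quantile normalization (adjusted p = 0.0527). MOAP-1 tumors, at -0.51, -0.55, and -0.76, differed from vector by 0.25 (adjusted p = 0.328), and the K278R tumors spread from -1.21 to -0.40.

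VDAC1 forms a channel of the mitochondrial outer membrane for metabolites and ions. The signal of A_32_P163169 was 0.34, 0.23, and 0.09 in MOAP-1 tumors, 0.12, 0.23, and 0.09 in K264R tumors, and -0.59, -0.42, and 0.11 in K278R tumors. Vector tumors were at -1.48, -2.12, and -1.34 and RASSF1A tumors at -2.08, -2.47, and -1.67. These were the largest changes among the 12 probes, with a rise of 1.86 for MOAP-1 (S.E. 0.23, adjusted p = 0.000236 by limma; 3.64-fold), 1.79 for K264R (adjusted p = 0.000161), and 1.35 for K278R (adjusted p = 0.00333). Among 3058 kept probes of the same decile of mean brightness, 0.196% rose at least as far with MOAP-1. In their own deciles, this share was 8.73% for VDAC1 A_23_P144816, 6.41% for HTRA2, and 4.87% for APAF1. For XIAP A_33_P3231187, 4.67% fell at least as far. The change of VDAC1 A_32_P163169 with RASSF1A was -0.43 and did not pass (adjusted p = 0.471 by limma). Its processed signal before scaling was 936.5 to 1219.8 with MOAP-1 and 146.6 to 303.4 with vector. The other VDAC1 probe (A_23_P144816) was at 3.53, 3.48, and 3.27 in MOAP-1 tumors and at 3.06, 3.15, and 2.99 in vector tumors. Its rise was much smaller, 0.36 with MOAP-1 (S.E. 0.11, adjusted p = 0.027 by limma) and 0.45 with K264R (adjusted p = 0.00819), and the change with K278R was 0.07 (adjusted p = 0.703). The MOAP-1 call at this probe was lost without MOAP-1 tumor 1 or 2 or vector tumor 1 or 3 (adjusted p from 0.0625 to 0.0882). Over the 15 arrays the VDAC1 probes correlated with r = 0.593, and the gene table lists 13 pseudogenes named for VDAC1.

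**Figure D2:**
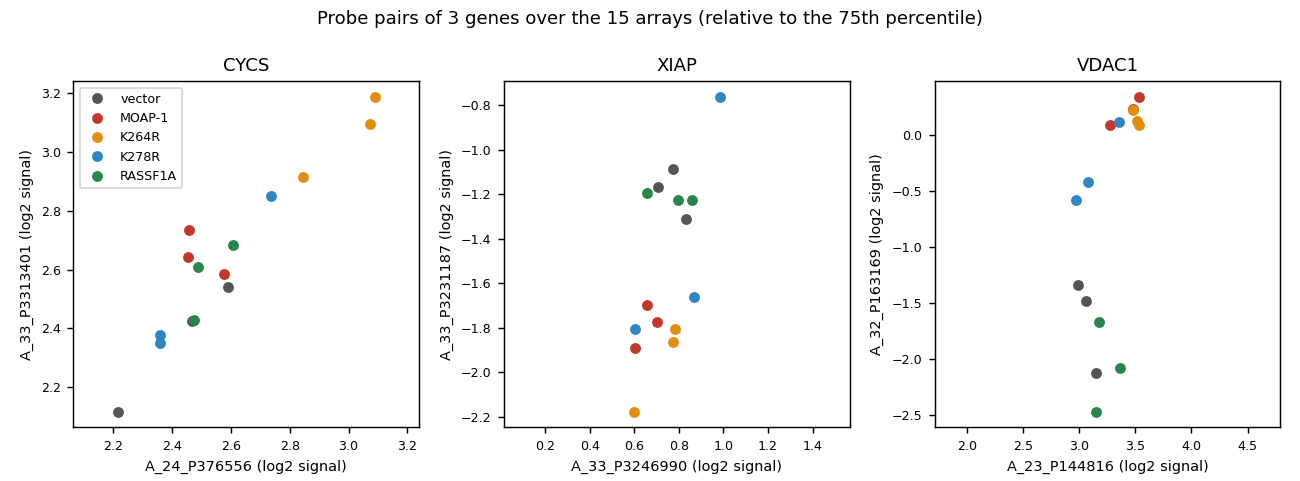
Log2 signals of paired probes of CYCS, XIAP, and VDAC1 on the 15 arrays, relative to the 75th percentile, with both axes of a panel at the same scale and colors for constructs. The CYCS probes lie along a diagonal (r = 0.94), whereas the XIAP and VDAC1 points spread mainly along the vertical axis.

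Counted over the 12 probes, 5 were called with MOAP-1 against vector, 4 higher and 1 lower, and 4 of them changed at least 1.5-fold. Of all kept probes 30.5% were called in this comparison (16% higher and 14.5% lower), and 16.6% with the fold condition. With K264R, 8 were called, 7 higher and 1 lower, against 34.9% of all kept probes (15.3% higher and 19.7% lower), and 5 of the 8 passed the fold condition, against 19.5%. With K278R, 3 were called, all higher, against 20.6% (12.6% higher), and 2 passed the fold condition, against 10.9%. With 12 probes, the counts with MOAP-1 and K278R were near what these shares give. The 8 with K264R include both bright CYCS probes, which followed each other (r = 0.94), and both VDAC1 probes. Probes of the same gene are not independent, and whether the K264R count exceeds its share was not tested. The median change of the 12 probes was 0.27, 0.50, and 0.06 in the 3 comparisons, where the median of all kept probes was 0.02, -0.05, and 0.06. With RASSF1A, 0 probes were called, as were 0% of all kept probes by limma. Without RASSF1A tumor 3, 5.7% of all kept probes were called, and still 0 of the 12. Of the 12, only HTRA2 had an unadjusted p below 0.05 in the limma fit, a share not counted for all kept probes. The methods' t-test also called 0, both after adjustment (0% of all kept probes) and without it but with the 1.5-fold condition (0.605%). Over the 5 constructs together, the F test called 7 of the 12 probes, against 43.3% of all kept probes. These were APAF1, HTRA2, both VDAC1 probes, the bright CYCS probes, and the dimmer XIAP probe. The 3 comparisons share the vector arrays, so their counts are not independent of each other.

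**Figure D3:**
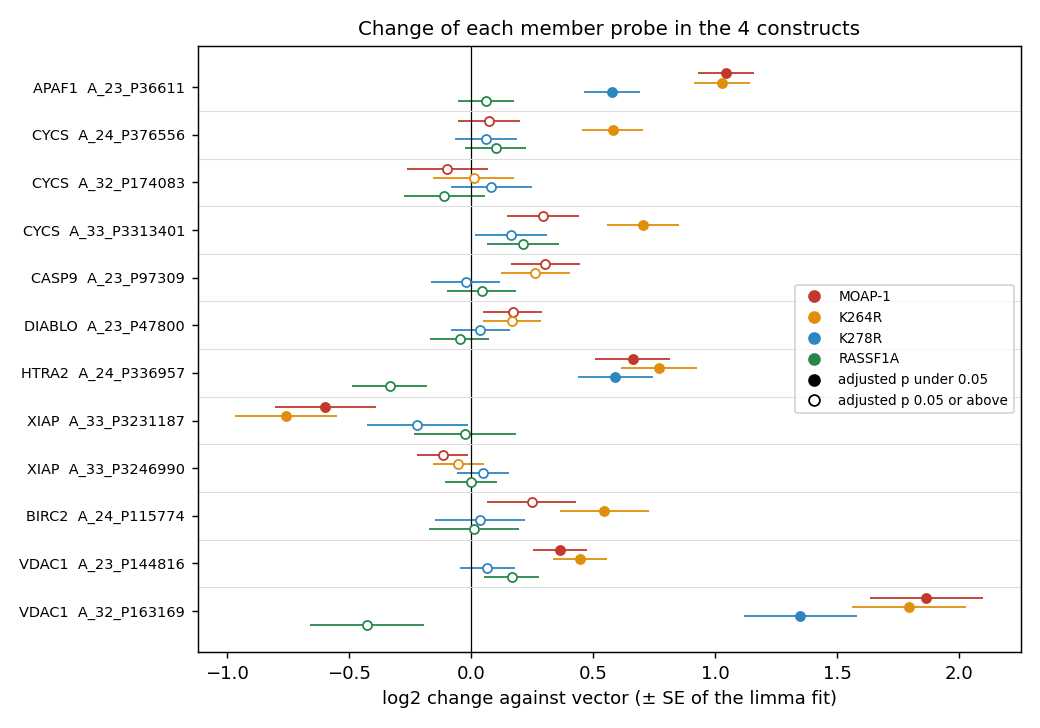
Log2 change of each probe against vector (horizontal axis) with the S.E. of the limma fit as bars, colored by construct, with filled points for an adjusted p under 0.05. MOAP-1 and K264R points lie near 1 for APAF1 (negative under the normexp background model) and near 1.8 for VDAC1 A_32_P163169, and no RASSF1A point is filled.

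Differences between the wild-type protein and its mutants were then tested at the same probes. Between MOAP-1 and K264R, 0 of 12 probes were called, against 0.00327% of all kept probes, and between MOAP-1 and K278R 0 of 12, against 0%, by limma. Without adjustment 2 and 4 probes were below 0.05 in these comparisons, but the share of all kept probes below it was not counted. The methods' t-test also called 0 in both. Unadjusted and with the 1.5-fold condition, that t-test called 1.01% and 0.474% of all kept probes. The largest differences were those of CYCS for K264R, given above, and of VDAC1 A_32_P163169 (0.52, S.E. 0.23, adjusted p = 0.533) and APAF1 (0.47, S.E. 0.11, adjusted p = 0.404) for K278R. On the slide that held both, MOAP-1 tumor 2 was above the mean of the K278R tumors by 0.53 for VDAC1 A_32_P163169, 0.43 for APAF1, and 0.17 for HTRA2, and the difference for XIAP A_33_P3231187 was -0.48. With limma array weights, 2 of the 12 probes were lower with MOAP-1 than with K264R, where 17.3% of all kept probes were called, so the count is near that share. Between K264R and K278R, 0 of the 12 probes were called by limma, against 0.765% of all kept probes. The smallest adjusted p was at a CYCS probe (difference 0.52, adjusted p = 0.0687 by limma). At an unadjusted p below 0.05 there were 6, and the share of all kept probes at that threshold was not counted. A p above the threshold does not show that the proteins act alike.

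Against RASSF1A, whose tumors shared no slide with the 3 forms of MOAP-1, 4 probes were called with MOAP-1, 7 with K264R, and 3 with K278R, where 37.2%, 40.2%, and 29.2% of all kept probes were called. VDAC1 A_32_P163169 was higher by 2.29 (adjusted p = 3.96e-05 by limma) with MOAP-1, 2.22 with K264R, and 1.78 with K278R. HTRA2 was higher by 1.00 with MOAP-1 and by 0.93 with K278R. At RASSF1A tumor 3, the only one on the vector slide, the 12 probes were within 0.25 of the vector mean.

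Other genes of the pathway were taken from a list of 38, of which 37 had 57 kept probes. With MOAP-1, 19 of the 57 were called, 11 higher and 8 lower; with K264R 20, 12 higher and 8 lower; and with K278R 14, 8 higher and 6 lower. These counts were near those given by the 30.5%, 34.9%, and 20.6% of all kept probes called. RASSF1A gave 0, with 9 at an unadjusted p below 0.05 in the limma fit. Shares of all kept probes at an unadjusted p in that fit were not counted. The median change of the list was 0.05, 0.11, and -0.02 for the 3 forms of MOAP-1. The 19 probes of 10 apoptosome modulators, mostly chaperones, divided with MOAP-1 into 4 higher, 4 lower, and the rest not called, and the 12 probes of 9 channel and carrier genes into 2 higher, 2 lower, and the rest not called. CASP6, an effector caspase, rose by 0.83 with MOAP-1 (S.E. 0.17, adjusted p = 0.00271 by limma), 0.65 with K264R (adjusted p = 0.00934), and 0.55 with K278R (adjusted p = 0.0337). Its levels were -0.87, -0.65, and -0.67 in MOAP-1 tumors and -1.63, -1.81, and -1.24 in vector tumors. None of 5 probes of other IAP genes, which include BIRC3 and BIRC5, was called against vector for any construct by limma, and at an unadjusted p below 0.05 there was 1 with MOAP-1 and 1 with RASSF1A.

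The genes of the list with the largest called changes were SEPTIN4, VDAC3, HSPA8, DFFA, and PTMA. How their calls and those of CASP6 depend on the processing, such as the background model that reversed APAF1, was not tested. VDAC3, a channel of the VDAC family, rose by 1.47 with MOAP-1 (adjusted p = 0.000469 by limma) and 1.70 with K264R, from -0.47, -0.65, and -0.04 in vector tumors to 1.15, 1.08, and 1.03 in MOAP-1 tumors. Its levels in K278R tumors were 0.32, 0.19, and 1.13. HSPA8, a constitutive HSP70 chaperone, rose by 1.22 with MOAP-1, 1.31 with K264R, and 1.11 with K278R. SEPTIN4, whose ARTS isoform binds XIAP, rose by 1.84 with MOAP-1, 1.64 with K264R, and 1.77 with K278R at a dim probe (A_23_P207003), with vector tumors between -7.03 and -5.86. The other SEPTIN4 probe, A_32_P402562, was not called, with changes of 0.14, 0.05, and 0.17 (adjusted p from 0.308 to 0.774 by limma). DFFA, the inhibitor of the caspase-activated nuclease, fell by 1.05 with MOAP-1 (adjusted p = 0.000282), with 1.68, 1.76, and 1.96 in MOAP-1 tumors and 2.98, 3.02, and 2.55 in vector tumors. K264R tumors were at 1.65, 1.84, and 1.76, and K278R tumors at 2.03, 2.40, and 2.16. PTMA (prothymosin-alpha, which restrains apoptosome formation) fell at 3 of its 5 probes with MOAP-1, K264R, and K278R. At A_33_P3346403 it fell by 1.03 with MOAP-1, 1.41 with K264R, and 0.95 with K278R, and at A_33_P3219803 by 0.86, 1.25, and 0.79, respectively. At another PTMA probe, A_24_P542375, the level rose by 0.38 with K264R (adjusted p = 0.011), so the PTMA probes also differed in direction.

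**Figure D4:**
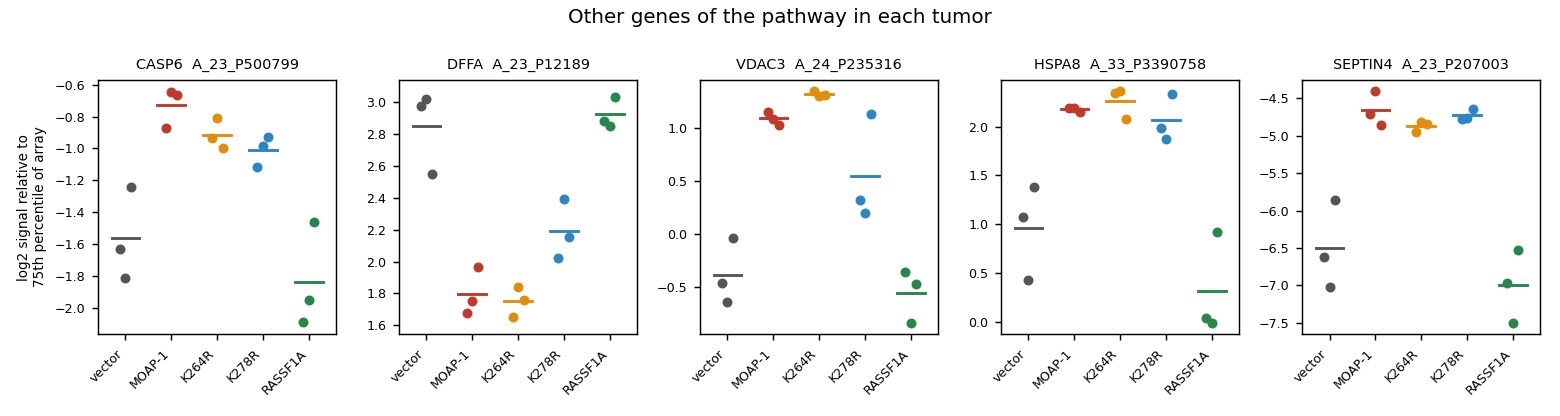
Log2 signal relative to the 75th percentile (vertical axes, whose ranges differ) of CASP6, DFFA, VDAC3, HSPA8, and SEPTIN4 in each tumor, with lines for means of 3. CASP6, VDAC3, HSPA8, and SEPTIN4 are higher, and DFFA lower, in all MOAP-1, K264R, and K278R tumors than in all vector tumors.

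The probes most like each member over the 15 arrays were found by Pearson's r, as a description in which all points share the arrays and their scaling. For APAF1 these were ANKRD10 (r = 0.973) and CRNKL1 (r = 0.972), and for HTRA2 SRP68 (r = 0.994) and CHTF8 (r = 0.993). BIRC2 was most like NCKAP1 (r = 0.984) and CCNT2 (r = 0.982). The brightest VDAC1 probe followed MED20 (r = 0.945) and CCNA2 (r = 0.922), and the brightest CYCS probe followed PBK and GFM1 (both r = 0.95). CASP9 was nearest to RNF214 (r = 0.947) and WASHC5 (r = 0.924), DIABLO to ZFAND3 (r = 0.941) and FNTB (r = 0.939), and XIAP to HPCA (r = 0.886) and GUSB (r = 0.882), where the probe was the one whose group means varied least of the 12.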

How the data were processed

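The authors deposited, for each of 15 arrays, the output of Agilent Feature Extraction (version 10.5.1.1 in the file headers, 9.1 in the labels), in which the processed signal is a background-corrected intensity that is not normalized between arrays. A table of log2 values from GeneSpring, scaled per array and centered per probe, was deposited as well. There, 7 columns follow another array of the same construct than the label gives, so it served only as an alternative for constructs. Groups and tumor numbers come from the labels.

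Control and outlier spots were left out, log2 intensities were taken relative to the array's 75th percentile, and spots of 1 probe were averaged. The filter on dim probes required that the scanner software called a probe well above background throughout 1 construct or more. Gene symbols come from RefSeq accessions (74.5% of probes named). limma 3.58.1 in R 4.3.3 was fitted to all 15 arrays (lmFit, eBayes, construct only, 10 residual degrees of freedom) with Benjamini-Hochberg adjustment over 30585 probes. The fit was tested on simulated data. The number of arrays limits the precision, and no spot was saturated.

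The members, the pathway list, and the marker lists were chosen with earlier results of these data known. Pathway genes were named when among the 4 largest called changes of at least 1.5-fold per construct against vector, beside CASP6, MOAP1, and RASSF1, and the results of some genes that the rule also names are not reported here. For likeness, the 2 probes of other genes with the highest r to the brightest probe of a member were named. HBA1 of the marker lists had no named probe. Alternatives were quantile normalization, normexp (offset 50, on the median signal and local background, also without spots over 5 times the median background of their array), no filter or a filter on all arrays, outlier spots kept, the log2 table, array weights, slide, scan day, or replicate number as a term, leaving out each tumor, only the 6 arrays compared, and the methods' t-test. The labels do not say that tumor numbers pair the samples, and the limma fit did not pair them. Of 30 pairs of tumors with 1 number in different constructs, 15 had deviations that correlated above 0.1 (range -0.255 to 0.366). For 4 of the 15 arrays, the closest array of another construct had the same number. Pairs of unlike number were not summarized, so these values do not settle whether the numbers pair the samples.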

Additional observations from a re-analysis of the deposited data

How the results depend on the processing

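The number of member probes called against vector was 5 with MOAP-1, 8 with K264R, and 3 with K278R. Under normexp these became 1, 1, and 0, against 1.76%, 3.15%, and 0.00327% of all kept probes, and the F test over the 5 constructs called 2 in place of 7. Normexp shifted the median change of all kept probes to -0.53 with MOAP-1, -0.31 with K264R, and -0.46 with K278R, and turned the change of APAF1 to -0.73, -0.20, and -0.93. When spots with an extreme local background were left out of that model, the counts were 4, 7, and 2, against 24.5%, 57.7%, and 9.73%. Quantile normalization lost the calls of APAF1 with K278R (adjusted p = 0.0545) and BIRC2 with K264R (adjusted p = 0.0527). The methods' t-test after adjustment called 3 with MOAP-1 and 0 with K278R, against 15.1% and 0% of all kept probes. Without adjustment but with the 1.5-fold condition it called 5 with K264R, against 19.3%. With only the 6 arrays compared, 1 was called with K278R, against 3.96% of all kept probes. Array weights called 2 between MOAP-1 and K264R, against 17.3% of all kept probes. Leaving out single tumors gave 3 to 4 calls with MOAP-1, against 19% to 28.2% of all kept probes. With K264R it gave 7, against 24.9% to 33.1%, and with K278R 2 to 4, against 7.84% to 20.4%. The F test called 3 to 8, falling to 4 without K264R tumor 1 and to 3 without K264R tumor 3. Shares of all kept probes for the F test were not counted under the alternatives. The MOAP-1 count fell to 3 without MOAP-1 tumor 1 or 2 or vector tumor 1 or 3. With the replicate number as a block, which the labels do not give as a pairing, 4, 8, and 3 probes were called. The shares of all kept probes were then 30.6%, 34.5%, and 21.1%, and the call of XIAP with MOAP-1 was lost (adjusted p = 0.0549). RASSF1A against vector and MOAP-1 against K278R gave 0 under every alternative run, including the slide as a fixed term. The share of all kept probes there was at most 5.7% and 0.762%, respectively. VDAC1 A_32_P163169 kept its rise with MOAP-1 and K264R past the threshold under all 19 alternatives each. The cause of these shifts was not tested.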
